A study of Mus musculus with 18 samples.

Results

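Marginal zone and follicular B cell markers, together with genes of the Notch2 pathway on which marginal zone cells depend, were followed in 18 RNA sequencing libraries of splenic B cells. The transcripts were taken by gene symbol and make up 8 of the 23420 genes in each library: Cr2, Fcer2a, Cd1d1, Cd9, Cd36, Dtx1, Notch2 and Plac8. All cells came from mice of the lupus-prone MRL/lpr strain, in which Fas carries the lpr mutation, at 5 to 7 weeks of age, and each of the 6 groups held 3 libraries. In the first arm, from females that all lacked Tlr7, B cells labelled Tlr9+/- Tlr7-/- (Tlr9het here) were set against Tlr997 Tlr7-/- cells (Tlr997), whose TLR9 carries the signaling TIR domain of TLR7, each either unstimulated or given the TLR9 agonist CpG at 10 µg/ml. In the second arm, from males that all lacked Tlr9, Tlr779 Tlr9-/- cells (Tlr779) have a TLR7 with the TIR domain of TLR9 and were unstimulated or given the TLR7 agonist CL097 at 5 µg/ml. All cells were cultured for 4 h. The treatment text of the labels names the first control genotype Tlr9-/- Tlr7-/- where the sample titles name Tlr9+/-, and the titles were followed. The cells had been purified with beads that remove cells bearing CD43, CD4, CD8, CD11b, CD11c or Gr-1, so B1 cells and CD11b or CD11c positive B cells were largely removed while marginal zone and follicular cells remained together in 1 tube. Sex, genotype and agonist all differed between the arms and cannot be told apart, so values of Tlr779 were placed beside the others without a test.

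Mature B cells of the spleen fall into follicular cells, which recirculate and carry CD23 (the low-affinity IgE receptor, encoded by Fcer2a), and marginal zone cells, which stay beside the marginal sinus and carry high CD21 (the complement receptor encoded by Cr2) and high CD1d (encoded by Cd1d1) with little CD23. Marginal zone cells arise when NOTCH2 on a B cell is engaged by the ligand DLL1 in the spleen. The receptor is then cleaved by ADAM10 and by γ-secretase, and its intracellular part binds RBPJ on DNA and raises targets such as Dtx1 and Hes1. CD9 is a tetraspanin and CD36 a scavenger receptor, both higher on marginal zone than on follicular cells, and Plac8 encodes a small cysteine-rich protein. The purpose of the description was to separate what the unstimulated cells show of the make-up of the subsets from what the agonist did to the transcripts.

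The genes lie at the following places on GRCm38, the assembly behind mm10: Cr2 on chromosome 1 from 195136811 to 195176880, Fcer2a on chromosome 8 from 3680280 to 3694174, Cd1d1 and Notch2 on chromosome 3 from 86995834 to 87012358 and from 98013538 to 98150367, and Cd9 on chromosome 6 from 125460266 to 125494760. Cd36, Dtx1 and Plac8 are all on chromosome 5, from 17781690 to 17888959, from 120680203 to 120711867 and from 100551589 to 100572253. In mice the Cr2 gene gives both CR2 and CR1 by splicing, so its value covers both receptors. Because the Notch pathway acts through RBPJ, the 250 bases before each RefSeq transcription start (GRCm38.p6) were searched for the RBPJ core TGGGAA on both strands. RefSeq gave 10 such windows for 7 of the 8 genes. The core stood in 5 of these windows, of 4 genes, and in 21.6% of all 32851 windows in the table. The stretches below are shown because they hold these matches, with the core in capitals, each read 5′ to 3′ on the strand of its gene (the minus strand in every case), and TTCCCA marks the core on the opposite strand. They are a description of letters and not of binding, and the absence of a match for Dtx1, Notch2 and Plac8 says only that these letters are not in their windows. The start behind the Cd36 stretch was not found in a GENCODE transcript of Cd36, while the starts behind the other stretches were found in transcripts of their genes.
Cr2, chr1:195176922-195176951: gatgtaggggggTGGGAAcgagaaagttaa
Cd36, chr5:17835922-17835951: gacttacttggaTGGGAAcatggccaaaaa
Cd9, chr6:125494954-125494983: accccgagacggTGGGAAgaaggaagatgg
Fcer2a, chr8:3690578-3690607: gatcaagagagtTGGGAAtcagaaccgact
Fcer2a, chr8:3691012-3691041: caagagggtgaaTTCCCAagaagggccagg
Fcer2a, chr8:3691082-3691111: gaTTCCCAggtgccaatgctggcactcatt

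Values were deposited as log2 CPM, where CPM is a read count scaled to the size of its library, and had been quantile normalized. Files with counts were not used here, so the depth of each library is unknown and no counting interval is given. Summed CPM lay between 991992 and 1004412 per library, and libraries of a group correlated across genes at Pearson's r from 0.944 to 0.989, with the lowest pairs both involving replicate 3 of unstimulated Tlr997. The B cell markers Ms4a1, Cd79a, Cd79b and Pax5 summed to between 4523 and 6110 CPM in unstimulated libraries and between 1118 and 2430 CPM in stimulated ones, so defining markers of B cells were present in every library, at a lower sum with an agonist. The markers did not move together. In the order given above, their log2 changes with CpG were -0.75, -3.27, -3.73 and 0.54 in Tlr9het and 0.41, -3.10, -2.58 and 0.47 in Tlr997. With CL097 in Tlr779 they were -0.78, -1.54, -2.01 and 0.02. The treatment text names 3 mice per genotype without tying a library to a mouse, and p-values measure the spread between these libraries. In bulk RNA, fewer cells of a subset and less RNA per cell cannot be told apart.

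In unstimulated cells, all 8 transcripts were present and none differed between Tlr997 and Tlr9het. Levels of different genes were compared as log2 CPM per kb of exon. On that scale Plac8 was highest, at means of 8.33 in Tlr9het, 8.43 in Tlr997 and 8.23 in Tlr779, and Cd1d1 was lowest, at 1.88, 2.13 and 2.10. Fcer2a stood at 6.77, 6.71 and 6.93 per kb (SD 0.21 to 0.36), next to Notch2 at 6.35, 6.28 and 6.22. Dtx1 (5.38, 5.31 and 5.26) and Cd9 (5.49, 5.49 and 5.19) lay within 1 SD of each other and changed places between groups, and Cd36 (4.84, 4.99 and 5.09) and Cr2 (4.44, 4.41 and 4.38) followed. In Tlr779, Cd36 was also within 1 SD of Cd9 and Dtx1. The order of the remaining genes was the same in the 3 unstimulated groups.

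The follicular marker Fcer2a was at 8.46, 8.16 and 8.57 log2 CPM in unstimulated Tlr9het, at 8.70, 7.97 and 8.35 in Tlr997 and at 8.34, 8.42 and 8.92 in Tlr779. The marginal zone marker Cr2 was at 7.36, 7.43 and 7.59 in Tlr9het, at 6.99, 7.79 and 7.52 in Tlr997 and at 7.67, 7.40 and 7.15 in Tlr779. For both genes the 3 groups overlapped, and the widest spread was in Tlr997 for Cr2. In limma's test across genes, the unstimulated difference between Tlr997 and Tlr9het was -0.03 for Cr2 (95% interval -0.44 to 0.38, Benjamini-Hochberg adjusted p = 0.98) and -0.06 for Fcer2a (-0.45 to 0.33, adjusted p = 0.93). Of the 8 genes 0 were called, that is, passed an adjusted p of 0.05 with an absolute log2 difference over 0.5, and 0 had an unadjusted p under 0.05 (the lowest was 0.29, for Plac8). Over all 11494 genes tested by limma, 0.0174% were called in this comparison (2 genes, both higher in Tlr997) and 10.8% had an unadjusted p under 0.05. The largest difference among the 8 was that of Cd1d1, 0.25 (95% interval -0.35 to 0.86, limma adjusted p = 0.77), and the tightest interval was that of Notch2, from -0.21 to 0.08 around -0.07. The groups overlapped for 8 of 8 genes, and they did not overlap for 13.6% of all genes.

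In some unstimulated libraries Cr2 and Fcer2a lay on opposite sides of their group means. Cr2 minus Fcer2a, as a difference of log2 CPM within a library, was -1.10, -0.73 and -0.98 in unstimulated Tlr9het, -1.70, -0.19 and -0.83 in Tlr997 and -0.68, -1.02 and -1.77 in Tlr779. Replicate 2 of Tlr997 thus had the highest Cr2 of its group beside the lowest Fcer2a, and replicate 1 of Tlr997 and replicate 3 of Tlr779 the reverse. In Tlr9het, replicate 3 was highest for both genes (0.13 and 0.17 above the group means of Cr2 and Fcer2a), and replicate 2 lay below both means (deviations of -0.03 and -0.24). The summed macrophage markers were highest among unstimulated libraries in replicate 3 of Tlr779 (429 CPM) and replicate 1 of Tlr997 (337 CPM), against 125 to 250 CPM in the other 7. Replicate 1 of Tlr997 also had the highest erythroid sum, 478 CPM, followed by replicate 2 of Tlr779 at 461 CPM. The part of other cells in these values was not tested. This relation was noticed in the values and then tested on them. Over the 9 unstimulated libraries Cr2 and Fcer2a had Pearson's r = -0.77 (exact permutation p = 0.0157, adjusted over 7 relations 0.11) and Spearman's rho = -0.75 (exact permutation p = 0.0255, adjusted 0.178). Without the 2 libraries farthest from the median of Cr2 r was -0.63, and over the 6 Tlr7-/- libraries it was -0.74. The same for Dtx1 against Fcer2a gave r = -0.71 (exact permutation p = 0.0345, adjusted 0.121) and rho = -0.63 (exact permutation p = 0.076, adjusted 0.266). Without the 2 libraries farthest from the median of Dtx1 r was -0.14, so that relation rested on them. The other 5 genes ranged in r from -0.65 (Cd9) to 0.06 (Cd1d1). None of the 7 relations passed the correction.

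**Figure D1:**
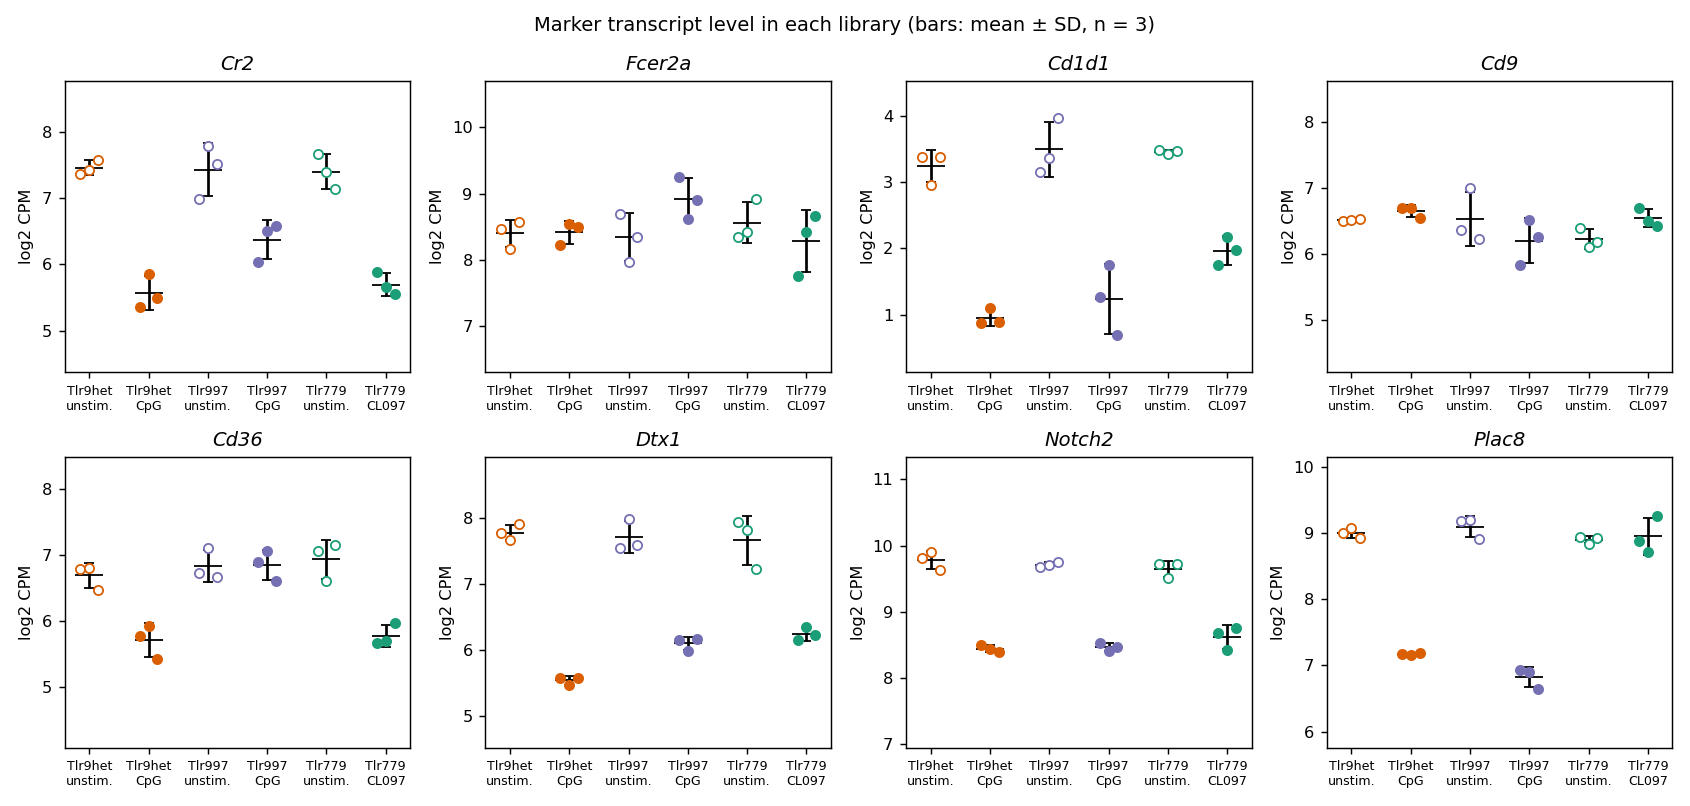
Level of each transcript in log2 CPM (vertical axes, which all span 4.4 units) in the 18 libraries by group, with open points for unstimulated and filled points for stimulated libraries and bars for the mean ± SD of 3. Unstimulated Tlr997 and Tlr9het overlap in every panel, unstimulated Tlr779 lies apart from Tlr9het for Cd9 and Cd1d1, and Cr2, Cd1d1, Dtx1 and Notch2 are lower in all 9 stimulated libraries than in all 9 unstimulated ones.

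With an agonist, 6 of the 8 transcripts were called lower in Tlr9het, 5 in Tlr997 and 5 in Tlr779. Neither the follicular marker Fcer2a nor the marginal zone marker Cd9 was called lower in any genotype. The follicular genes Itgb7 and Klf2, which are not among the 8, were called lower in all 3 genotypes, as given below. Cr2, Cd1d1, Dtx1 and Notch2 fell in all 3. Calls were frequent in general: of all genes tested by limma 57.9% were called with CpG in Tlr9het (28.2% lower and 29.7% higher), 55.6% with CpG in Tlr997 (26% lower and 29.6% higher) and 46.3% with CL097 in Tlr779 (23.6% lower and 22.7% higher). Beside these shares, the median log2 change of the 8 genes was -1.58, -1.15 and -1.10, where the median over all tested genes was 0.04, 0.07 and -0.02. Quantile normalization makes the distribution of values alike between libraries, so a median near 0 over all genes follows largely from it. A fall is thus relative to other transcripts, and the amount of RNA per cell was not measured. The stimulated and unstimulated libraries did not overlap for 7, 5 and 6 of the 8 genes, against 80.1%, 71.2% and 67.8% of all genes.

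Notch2, the receptor itself, was at 9.80, 9.90 and 9.63 log2 CPM in unstimulated Tlr9het and at 8.50, 8.44 and 8.39 with CpG. In Tlr997 it was at 9.67, 9.71 and 9.76 without and 8.53, 8.41 and 8.47 with CpG, and in Tlr779 at 9.72, 9.51 and 9.72 without and 8.68, 8.42 and 8.76 with CL097. Every stimulated library lay below every unstimulated one. Notch2 fell by 1.34 on the log2 scale in Tlr9het (SE 0.07, limma adjusted p = 6.0e-10), by 1.24 in Tlr997 (SE 0.07, adjusted p = 1.6e-09) and by 1.03 in Tlr779 (SE 0.10, adjusted p = 7.5e-05).

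Dtx1, which encodes a Deltex E3 ligase and is a target of NOTCH2 in B cells, was at 7.77, 7.66 and 7.90 in unstimulated Tlr9het and at 5.58, 5.47 and 5.59 with CpG. In Tlr997 the values were 7.54, 7.98 and 7.59 without and 6.15, 5.99 and 6.18 with CpG, and in Tlr779 they were 7.93, 7.81 and 7.23 without and 6.15, 6.35 and 6.23 with CL097. All stimulated libraries were again below all unstimulated ones, and the 3 Tlr9het libraries with CpG were below all 3 Tlr997 libraries with CpG. Dtx1 fell by 2.23 in Tlr9het (SE 0.10, limma adjusted p = 3.7e-10), by 1.60 in Tlr997 (SE 0.10, adjusted p = 1.2e-08) and by 1.42 in Tlr779 (SE 0.17, adjusted p = 1.8e-04).

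Cr2 was at 5.36, 5.85 and 5.49 with CpG in Tlr9het, at 6.04, 6.50 and 6.58 with CpG in Tlr997 and at 5.89, 5.65 and 5.55 with CL097 in Tlr779, below every unstimulated library of the 3 genotypes. The log2 change was -1.89 in Tlr9het (SE 0.19, limma adjusted p = 8.0e-07), -1.06 in Tlr997 (SE 0.19, adjusted p = 2.1e-04) and -1.71 in Tlr779 (SE 0.14, adjusted p = 3.0e-05). Follicular dendritic cells also carry Cr2: of 4 of their markers found, Cxcl13 and Madcam1 had medians of -4.67 and -4.04 log2 CPM over the 18 libraries, near the lowest values in the files, and the 4 summed to between 7.65 and 11.3 CPM in unstimulated and between 3.87 and 5.45 CPM in stimulated libraries. Mfge8 made up most of that sum, and the part of such cells in the Cr2 values was not tested.

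Cd1d1, which presents lipids to NKT cells, was at 3.38, 2.96 and 3.38 in unstimulated Tlr9het and at 0.87, 1.10 and 0.89 with CpG, and at 3.15, 3.37 and 3.97 without and 1.27, 1.75 and 0.70 with CpG in Tlr997. In Tlr779 it was at 3.49, 3.43 and 3.47 without and 1.75, 2.18 and 1.97 with CL097. The groups did not overlap in any genotype, and the spread was widest in Tlr997. The log2 change was -2.29 in Tlr9het (SE 0.28, limma adjusted p = 5.8e-06), -2.26 in Tlr997 (SE 0.28, adjusted p = 7.4e-06) and -1.50 in Tlr779 (SE 0.17, adjusted p = 1.4e-04). Cd1d2 is a near copy that can share reads with Cd1d1, and it was far lower, with a median of -0.86 log2 CPM over the 18 libraries. Its log2 change with CpG was -3.16 in Tlr9het (SE 0.94, limma adjusted p = 0.0083) and -3.39 in Tlr997 (SE 0.94, adjusted p = 0.0056). It did not pass the filter on low values in Tlr779.

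Cd36 did not share 1 pattern across genotypes. In Tlr9het it was at 6.79, 6.80 and 6.48 without and 5.78, 5.92 and 5.42 with CpG, in Tlr997 at 6.73, 7.11 and 6.66 without and 6.89, 7.05 and 6.61 with CpG, and in Tlr779 at 7.06, 6.60 and 7.15 without and 5.67, 5.69 and 5.97 with CL097. Stimulated libraries lay below unstimulated ones in Tlr9het and Tlr779 and among them in Tlr997. The log2 change was -0.98 in Tlr9het (SE 0.15, limma adjusted p = 6.1e-05), -1.16 in Tlr779 (SE 0.15, adjusted p = 3.0e-04) and 0.02 in Tlr997 (95% interval -0.32 to 0.35, adjusted p = 0.93). Macrophages and platelets also carry Cd36 and Cd9. The 7 macrophage markers summed to between 177 and 250 CPM without and between 118 and 157 CPM with CpG in Tlr9het, to between 125 and 337 and between 78.9 and 197 CPM in Tlr997, and to between 173 and 429 CPM without and between 85.8 and 179 CPM with CL097 in Tlr779. They were thus lower with an agonist in all 3 genotypes by their medians, while Cd36 changed in Tlr9het and Tlr779. Called lower were 1, 1 and 2 of the 7 markers and called higher 0, where 28.2%, 26% and 23.6% of all genes were called lower. The 6 platelet markers summed to between 2.67 and 8.64 CPM over the 18 libraries. The part of other cells in the Cd36 values was not tested.

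Plac8 fell with CpG in both genotypes and was not called with CL097. It was at 9.01, 9.08 and 8.93 without and 7.18, 7.16 and 7.19 with CpG in Tlr9het, at 9.19, 9.19 and 8.91 without and 6.93, 6.90 and 6.65 with CpG in Tlr997, and at 8.94, 8.84 and 8.93 without and 8.88, 8.72 and 9.26 with CL097 in Tlr779. Both CpG groups were below all other libraries, and the Tlr779 groups overlapped. The log2 change was -1.83 in Tlr9het (SE 0.08, limma adjusted p = 3.5e-10), -2.27 in Tlr997 (SE 0.08, adjusted p = 7.3e-11) and 0.05 in Tlr779 (95% interval -0.25 to 0.35, adjusted p = 0.75). The difference between arms was not tested, since sex, genotype and agonist cannot be told apart.

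Cd9 passed both thresholds in no genotype. It was at 6.50, 6.52 and 6.53 without and 6.70, 6.70 and 6.54 with CpG in Tlr9het, at 6.36, 6.99 and 6.23 without and 5.84, 6.51 and 6.25 with CpG in Tlr997, and at 6.39, 6.10 and 6.19 without and 6.70, 6.50 and 6.42 with CL097 in Tlr779. Stimulated libraries lay above the unstimulated ones in Tlr9het and Tlr779, by small margins. The log2 change was 0.13 in Tlr9het (95% interval -0.26 to 0.52, limma adjusted p = 0.54), -0.32 in Tlr997 (-0.71 to 0.07, adjusted p = 0.12) and 0.32 in Tlr779 (0.08 to 0.55, adjusted p = 0.028, below the threshold on the size of the change).

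Fcer2a, the follicular marker, was at 8.22, 8.54 and 8.49 with CpG in Tlr9het, at 9.25, 8.62 and 8.90 with CpG in Tlr997 and at 7.76, 8.42 and 8.66 with CL097 in Tlr779. In each genotype these values overlapped those of unstimulated cells. The log2 change was 0.02 in Tlr9het (95% interval -0.37 to 0.41, limma adjusted p = 0.93) and -0.28 in Tlr779 (-0.83 to 0.27, adjusted p = 0.33). It rose by 0.58 in Tlr997 (SE 0.18, limma adjusted p = 0.011), a call that was lost without replicate 2 of unstimulated Tlr997 (0.40, adjusted p = 0.057), without replicate 1 of Tlr997 with CpG (0.42, adjusted p = 0.056) and without the filter on low values (adjusted p = 0.072). Over its alternatives the adjusted p ranged from 0.00015 to 0.072, the lowest in the limma fit with the replicate number as a block. Same-numbered Tlr997 libraries differed by 0.55, 0.65 and 0.55 for Fcer2a. Cr2 minus Fcer2a was between -3.21 and -1.87 log2 units in the 9 stimulated libraries and between -1.77 and -0.19 in the 9 unstimulated ones, so the 2 sets did not overlap.

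**Figure D2:**
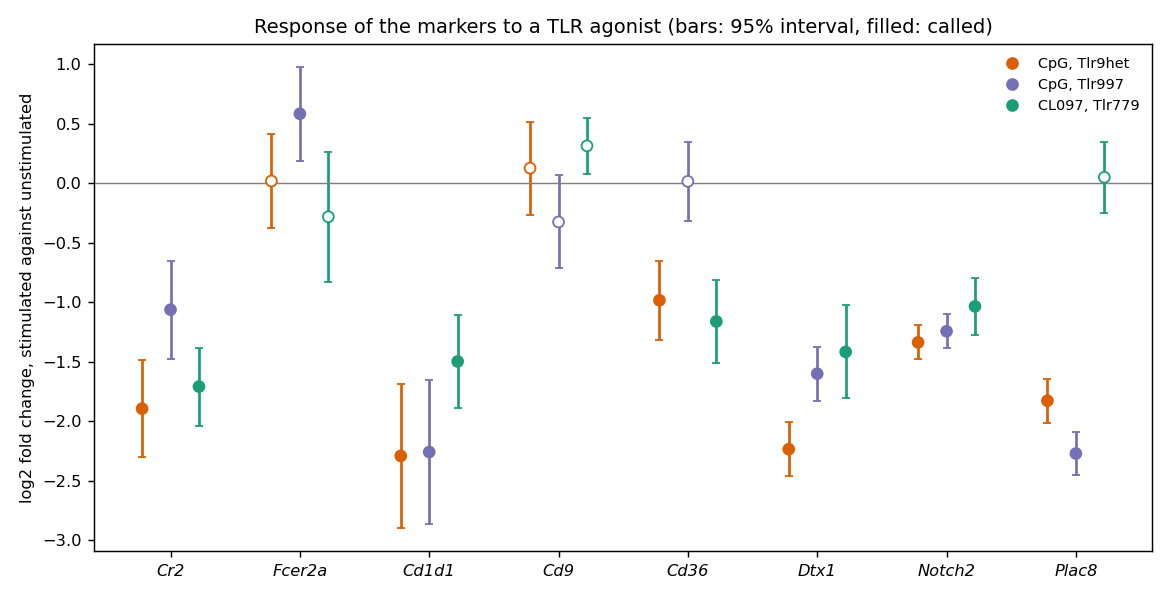
Log2 fold change of each transcript with agonist (vertical axis) in the 3 genotypes, with 95% intervals from limma and filled points for called genes. Cr2, Cd1d1, Dtx1 and Notch2 lie below 0 with all 3 stimuli, Cd36 lies near 0 only with CpG in Tlr997 (0.02) and Plac8 only with CL097 in Tlr779 (0.05).

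**Figure D3:**
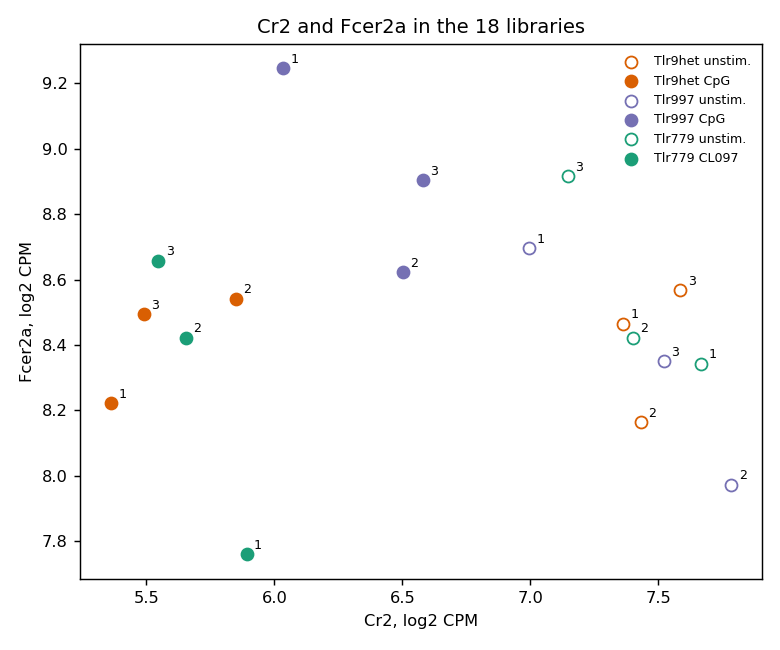
Cr2 against Fcer2a in log2 CPM, 1 point per library with its replicate number, open for unstimulated and filled for stimulated. All 9 stimulated libraries lie at lower Cr2 than the 9 unstimulated ones, while Fcer2a lies between 7.97 and 8.92 without and between 7.76 and 9.25 with an agonist.

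The genotypes of the Tlr7-/- arm were then compared after CpG. Cd36, Cr2 and Dtx1 were higher in Tlr997 than in Tlr9het, 3 of the 8 genes, and none was called lower. Over all genes limma called 2.72%, 1.25% higher and 1.47% lower in Tlr997. Cd36 differed by 1.14 (SE 0.15, limma adjusted p = 9.8e-04), Cr2 by 0.81 (SE 0.19, adjusted p = 0.025) and Dtx1 by 0.56 (SE 0.10, adjusted p = 0.0070), each with the 3 Tlr997 libraries above the 3 Tlr9het libraries. The Cr2 call was lost without replicate 2 (adjusted p = 0.094) or 3 (0.103) of Tlr997 with CpG and without replicate 1 (0.114) or 3 (0.0939) of Tlr9het with CpG, in fits by limma with a range of adjusted p from 0.0021 to 0.159 over its alternatives. Dtx1 lost its call with no filter (adjusted p = 0.062, range 0.0011 to 0.062).

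Plac8 was 0.35 lower in Tlr997 with CpG (95% interval of the difference -0.53 to -0.17, limma adjusted p = 0.029), under the threshold on size. Fcer2a differed by 0.51 (0.11 to 0.90, adjusted p = 0.14), Cd9 by -0.44 (-0.83 to -0.05, adjusted p = 0.19), Cd1d1 by 0.29 (-0.32 to 0.89, adjusted p = 0.67) and Notch2 by 0.03 (-0.12 to 0.17, adjusted p = 0.89). The Tlr997 and Tlr9het libraries with CpG did not overlap for 6 of the 8 genes, against 30% of all genes. Of the 4 general B cell markers, Ms4a1 and Cd79b were also higher in Tlr997 with CpG, at means of 10.57 against 9.31 and 8.21 against 7.17 log2 CPM. Cd79a differed by 0.04 (limma adjusted p = 0.90) and Pax5 by -0.13 (adjusted p = 0.38), and neither was called. The part of these markers in the differences of Cr2, Dtx1 and Cd36 was not tested.

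The CpG responses themselves differed between the genotypes for Cd36 and Dtx1. The response in Tlr997 minus that in Tlr9het was 1.00 for Cd36 (SE 0.22, limma adjusted p = 0.035) and 0.63 for Dtx1 (SE 0.15, adjusted p = 0.046), where limma called 1.54% of all genes (0.687% higher and 0.853% lower). The Cd36 call was lost in 7 of the 12 fits that left out 1 library and was kept without replicate 2 or 3 of unstimulated Tlr997, 3 of Tlr997 with CpG, 3 of unstimulated Tlr9het and 2 of Tlr9het with CpG (adjusted p from 0.020 to 0.103 over the 12). The Dtx1 call was lost in 11 of the 12 and kept only without replicate 2 of unstimulated Tlr997 (adjusted p from 0.0054 to 0.124 over the 12). Over all alternatives the adjusted p ranged from 0.00037 to 0.191 for Cd36 and from 0.0054 to 0.199 for Dtx1. The difference of responses was 0.83 for Cr2 (95% interval 0.25 to 1.41, limma adjusted p = 0.15), 0.57 for Fcer2a (0.01 to 1.12, adjusted p = 0.30), -0.44 for Plac8 (-0.70 to -0.18, adjusted p = 0.083) and -0.45 for Cd9 (SE 0.26, adjusted p = 0.41). In the limma fit with the replicate number as a block, the adjusted p was 0.0080 for Cr2 and 0.034 for Fcer2a, so both were called there. For Cd1d1 it was 0.03 (-0.82 to 0.89, adjusted p = 0.98) and for Notch2 0.09 (-0.11 to 0.29, adjusted p = 0.68).

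**Figure D4:**
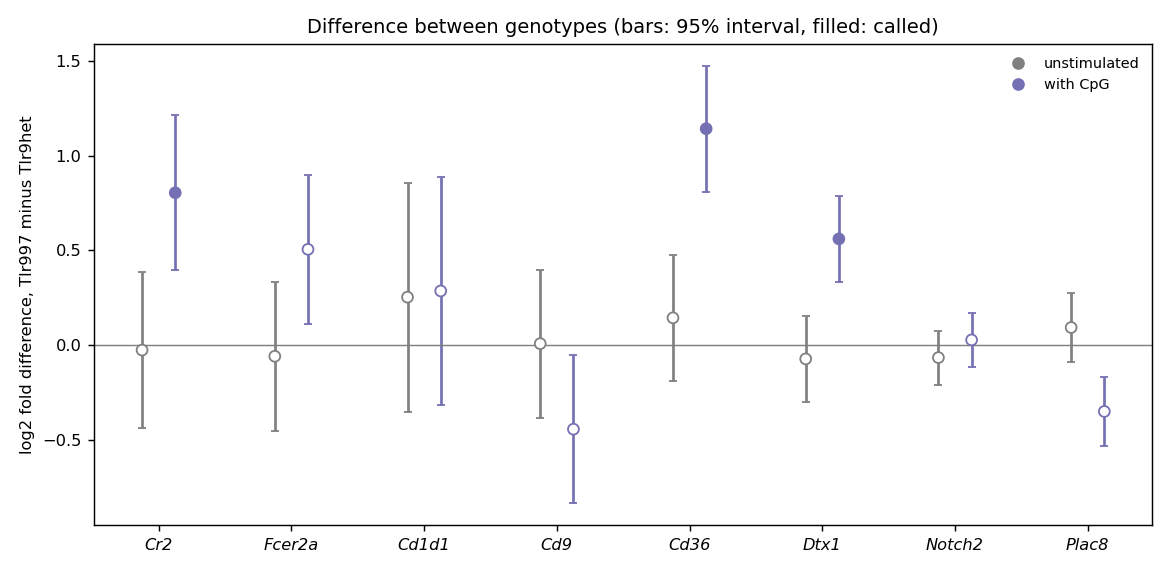
Difference between Tlr997 and Tlr9het in log2 CPM (vertical axis) for each transcript, unstimulated in grey and with CpG in purple, with 95% intervals from limma and filled points for called genes. No unstimulated difference is called, and with CpG Cd36 (1.14), Cr2 (0.81) and Dtx1 (0.56) are called higher in Tlr997.

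Other genes of the 2 subsets did not follow one direction. Of 8 further marginal zone genes, 2 rose and 4 fell with CpG in Tlr9het and in Tlr997, and 2 rose and 3 fell with CL097 in Tlr779. Their median log2 changes were -1.01, -0.80 and -0.65, beside 0.04, 0.07 and -0.02 over all genes, of which 57.9%, 55.6% and 46.3% were called in either direction. Fcrl5, an Fc receptor-like protein, rose by 2.42, 2.17 and 2.30 on the log2 scale in Tlr9het, Tlr997 and Tlr779, and Sema7a, a semaphorin, rose by 1.94, 2.05 and 1.70. Mzb1, an endoplasmic reticulum protein of antibody folding, changed by -2.76, -2.70 and -1.52, and Tm6sf1 by -2.84, -3.12 and -2.22. S1pr3, a sphingosine 1-phosphate receptor of marginal zone cells, changed by -1.93, -1.44 and -0.93 and after CpG stood 0.55 above Tlr9het in Tlr997 (SE 0.14, limma adjusted p = 0.041).

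Of 5 further follicular genes 4 were found. With CpG 1 rose and 2 fell in either genotype, and with CL097 2 rose and 2 fell, at medians of -1.06, -1.18 and -0.35. Over all genes 57.9%, 55.6% and 46.3% were called in either direction, at medians of 0.04, 0.07 and -0.02. Itgb7, an integrin chain, changed by -3.44, -3.91 and -2.93 in Tlr9het, Tlr997 and Tlr779, and Klf2, a transcription factor of quiescence and trafficking, by -2.26, -2.65 and -1.25. Ccr7, a chemokine receptor, rose by 1.27, 1.16 and 1.63.

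Of 32 further Notch pathway genes, 29 passed the filter in the Tlr7-/- arm and 26 in Tlr779. Of these, 10 fell and 4 rose with CpG in Tlr9het, 12 fell and 1 rose in Tlr997, and 9 fell and 1 rose with CL097. Of all genes tested 28.2%, 26% and 23.6% were called lower. The medians of the Notch pathway genes tested were -0.14, -0.19 and -0.32, beside 0.04, 0.07 and -0.02 over all genes. Lfng, a glycosyltransferase that tunes NOTCH2 for DLL1, changed by -2.08, -1.66 and -1.96, and Nrarp, a target that feeds back on the pathway, by -2.21, -2.86 and -2.10. Adam10, the protease that cleaves NOTCH2 and sheds CD23, changed by -1.21, -1.14 and -0.63, all called. Hes5, a further target, changed by -1.59, -1.18 and -1.62. Hes5 and Nrarp were low, with medians of 0.20 and 0.71 log2 CPM over the 18 libraries, where unknown depth limits what can be said of a change.

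Rbpj changed by -0.16, -0.11 and -0.40 and was called in none, the last with a limma adjusted p of 0.0071 but a change under the threshold. Hes1 changed by 0.27 in Tlr9het (limma adjusted p = 0.21), by -0.66 in Tlr997 (adjusted p = 0.0068) and by -0.32 in Tlr779 (adjusted p = 0.29). With CpG it was lower in Tlr997 than in Tlr9het by 0.71 (log2 difference -0.71, SE 0.19, limma adjusted p = 0.045), the opposite sign to Dtx1, and Maml3, a coactivator, was lower as well (-0.64, SE 0.17, adjusted p = 0.049). No gene of these lists was called between the unstimulated genotypes.

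**Figure D5:**
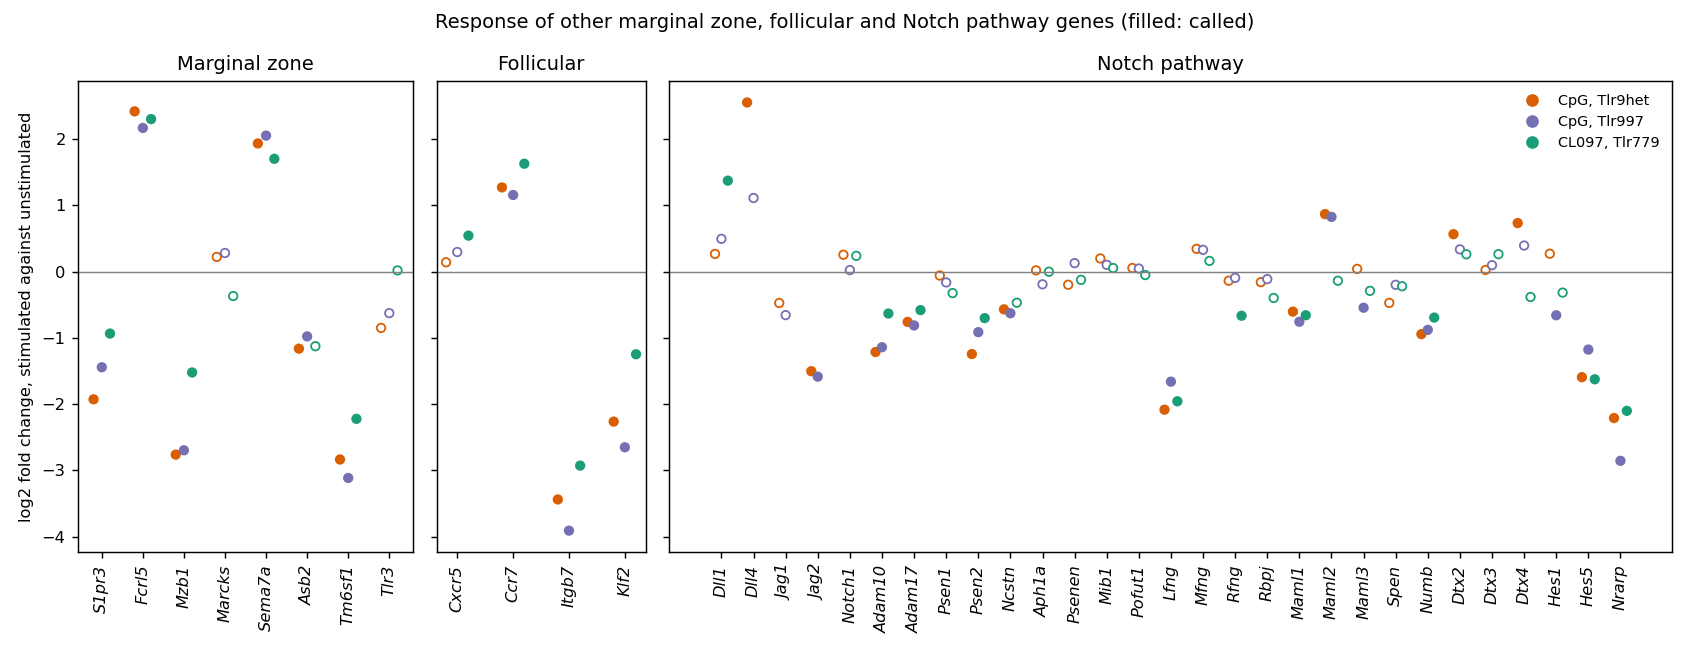
Log2 fold change with agonist (vertical axis) of the other marginal zone, follicular and Notch pathway genes tested in the Tlr7-/- arm, 1 colour per genotype and filled points for called genes. Fcrl5, Sema7a and Ccr7 lie above 0 and Mzb1, Tm6sf1, Itgb7, Lfng and Nrarp below 0 with all 3 stimuli.

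Partners of the CD21 protein on the B cell surface moved in different directions. Of 8 coreceptor and tetraspanin genes, 2 rose and 4 fell in each of Tlr9het, Tlr997 and Tlr779, at medians of -0.40, -0.42 and -0.45. Over all genes 57.9%, 55.6% and 46.3% were called in either direction, at medians of 0.04, 0.07 and -0.02. Cd81, the tetraspanin of the coreceptor, rose by 1.71, 1.67 and 0.74 in Tlr9het, Tlr997 and Tlr779, and the tetraspanin Cd82 by 1.55, 1.40 and 0.78. Cr1l, the neighbour of Cr2, fell by 0.56, 0.67 and 0.68. Among 4 genes of CD1d loading, Psap, the precursor of the saposins that load lipids, fell by 1.33, 1.54 and 1.15.

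Of 15 regulators of the choice between follicular and marginal zone fate, 4 rose and 10 fell with CpG in Tlr9het, and 4 rose and 11 fell in Tlr997 and in Tlr779, where 57.9%, 55.6% and 46.3% of all genes were called in either direction. Their median log2 changes were -1.16, -1.04 and -0.84, beside 0.04, 0.07 and -0.02 over all genes. The repressor Id3 changed by -1.92, -2.41 and -2.66, Ikzf3 by -3.05, -2.81 and -1.95, Pou2af1, an octamer coactivator, by -2.52, -3.14 and -1.70, and Id2 rose by 1.63, 1.41 and 1.56. With CpG, Tcf4 was 0.62 higher in Tlr997 (SE 0.06, limma adjusted p = 7.1e-05), Foxo1 differed by -0.56 (SE 0.07, adjusted p = 4.4e-04) and Pou2af1 by -0.73 (SE 0.09, adjusted p = 3.8e-04).

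The genes whose pattern was most like each of the 8 over the 12 Tlr7-/- libraries differed from gene to gene. By Pearson's r they were Chst10 (0.985) and Nlrp10 (0.977) for Cr2, Cd72 (0.933) and Ankra2 (0.855) for Fcer2a, and Actr1a (0.989) and Mgst2 (0.988) for Cd1d1. Hdac9 (0.92) and Nmral1 (0.919) were nearest to Cd36 and Ctsc (0.86) and Sipa1l1 (0.849) to Cd9. Ehmt2 (0.997) and Sgsm2 (0.994) were nearest to Dtx1, Arfgef2 and C2cd3 (0.997 each) to Notch2, and Nr3c1 (0.998) and Irf2 (0.997) to Plac8. These were the 2 highest of 11494 genes in each case and are a description, since the libraries share groups and a stimulus. In the 6 Tlr779 libraries, which did not enter the choice, r with the first and second gene named was 0.97 and 0.923 for Cr2, 0.543 and 0.383 for Fcer2a, and 0.975 and 0.909 for Cd1d1. It was 0.932 and -0.242 for Cd36, -0.564 and 0.928 for Cd9, and 0.659 and 0.853 for Dtx1. For Notch2 it was 0.984 and 0.985, and for Plac8 0.185 and 0.17.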

How the data were processed

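RNA was sequenced from bead-purified splenic B cells. The submitters' processing notes list FastQC 0.11.7, Trim Galore 0.6.5, STAR 2.6.1a (build mm10), featureCounts of Subread 2.0.1 and limma. The authors quantile normalized the gene counts and transformed them with voom, and the deposited values are log2 CPM with 3 decimals, 1 file per library. Voom's offset of 0.5 counts is part of these values and understates changes of low genes. In the Tlr7-/- arm an offset per replicate number had been removed: of 6614 genes under -4 in all 12 libraries, 6306 held 1 value per number and 822 of these differed between numbers. Fits without a block do not know of that removal.

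Genes over 0 log2 CPM in at least 3 fitted libraries were tested, 11494 in the 12 Tlr7-/- libraries and 11082 in the 6 Tlr779 libraries, with limma 3.58.1 in R 4.3.3 (group means, variance trend) and Benjamini-Hochberg adjustment over all genes tested. A call needed an adjusted p under 0.05 and an absolute log2 change over 0.5. The fit was tested on simulated data with independent noise in each library. Those data held no pairing by number and no removed offset, so that test does not cover either. Python 3.11.15 with scipy 1.17.1 gave the permutation tests. The 8 genes and all lists were chosen with earlier results of these data known. From each list up to 4 called genes with the largest change and no overlap between groups could be named, with fixed partners of the 8 genes. Some genes of the lists are not reported here and were left out of their counts. Exon lengths came from GENCODE's mouse annotation.

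Deviations from group means correlated between same-numbered libraries at 0.513, 0.287 and 0.509 in Tlr9het and at 0.252, 0.485 and 0.334 in Tlr779, so the numbers were taken to pair these. The main fit did not use this pairing, so its SEs and intervals are those of unpaired groups. With the replicate number as a block, the SE of the CpG response in Tlr9het was 0.098 for Cr2 and 0.065 for Cd36, against 0.19 and 0.15. For Cd1d1 it was 0.30 against 0.28. Alternatives were the replicate block, scaling, pseudocount, filter, trend, the libraries fitted, the fold threshold and leaving out each library. Depth is unknown.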

Additional observations from a re-analysis of the deposited data

Results flagged for a closer look

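Cd36 and Dtx1 were picked out because the test of the difference itself found unequal CpG responses in the 2 genotypes. For Cd36 the response in Tlr997 minus that in Tlr9het was 1.0 on the log2 scale, from a fall of 0.98 in Tlr9het (log2 change -0.98) beside 0.02 in Tlr997, and the differences between same-numbered libraries were -1.01, -0.88 and -1.06 in Tlr9het and 0.16, -0.06 and -0.06 in Tlr997. For Dtx1 it was 0.63, with same-numbered differences of -2.19, -2.19 and -2.32 in Tlr9het and -1.39, -1.99 and -1.42 in Tlr997. The numbers were not taken to pair the Tlr997 libraries. Leaving out 1 library lost the Cd36 call in 7 of 12 fits and the Dtx1 call in 11 of 12.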

How the results depend on the processing

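Of 848 values of single genes under an alternative, 790 kept their direction and side of the threshold, 33 lost a call, 3 gained one and 22 changed sign. With the replicate number as a block, 4 of the 8 genes were called in the difference of CpG responses, with Cr2 (adjusted p = 0.0080) and Fcer2a (0.034) added, and 328 genes in all against 177. The block changed no call of the 8 in the Tlr9het and Tlr779 responses. Same-numbered Tlr997 libraries correlated at 0.373, 0.083 and 0.025, and those of other numbers at -0.256 to 0.168. By these values the numbers were not taken to pair them. Some sums of other-cell markers did keep their order by number. In replicates 1, 2 and 3 of Tlr997, erythroid sums were 478, 21 and 47 CPM without and 257, 17 and 33 CPM with CpG. Macrophage sums were 337, 204 and 125 CPM without and 197, 124 and 78.9 CPM with CpG. Platelet and endothelial sums did not keep their order. Whether a number marks a mouse in Tlr997 was not tested. The block fit of the responses and the same-numbered differences still match Tlr997 libraries by number. The count for the difference of responses, 2, became 0 with no filter, no variance trend or a fold threshold of 1, became 1 with all 18 libraries in 1 model, and ranged from 0 to 2 when 1 library was left out. Plac8 was called there without replicate 3 of unstimulated Tlr997 (-0.54, adjusted p = 0.016, range 0.0060 to 0.263). The count with CpG between genotypes, 3, became 1 with no filter or a fold threshold of 1. Cr2 lost its call there with no variance trend (adjusted p = 0.081). The cause was not tested.

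Signs changed for values near 0. The difference of Cd1d1 responses was -0.025 on log2(CPM + 1) and from -0.22 to 0.30 without 1 library. Without 1 library, the change of Fcer2a in Tlr9het ranged from -0.10 to 0.12, that of Cd36 in Tlr997 from -0.084 to 0.154 and that of Plac8 in Tlr779 from -0.10 to 0.17, that of Notch2 between genotypes with CpG from -0.005 to 0.0585, and the unstimulated differences from -0.202 to 0.194 for Cr2, -0.237 to 0.125 for Fcer2a, -0.226 to 0.156 for Cd9 and -0.211 to 0.0102 for Dtx1.

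Over all genes, a fold threshold of 1 left 4060, 3768 and 2582 calls for CpG in Tlr9het, CpG in Tlr997 and CL097, from 6650, 6388 and 5135, and 74 (from 313) with CpG between genotypes and 46 (from 177) for the difference. No filter gave 0, 187 and 78 calls for the unstimulated, CpG and difference comparisons, and no variance trend 98 for the last. Fitting only the groups compared gave 0 unstimulated calls, and leaving out replicate 2 or 3 of unstimulated Tlr997 gave 4, from 2. Without replicate 1 of Tlr9het with CpG, 187 genes were called with CpG between genotypes. The difference of responses gave 295 calls without replicate 3 of unstimulated Tlr997, 87 without replicate 1 of unstimulated Tlr9het and 101, 101 and 90 without replicates 1, 2 and 3 of Tlr9het with CpG. Unknown depth limits what can be said of low genes such as Cd1d1, Cd1d2, Hes5 and Nrarp.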
